A study of Homo sapiens and Mus musculus with 8 samples.

Results

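KM12 and LS174T are human colorectal cancer cell lines, each derived from the tumor of a different patient, and both grow as epithelial cells in culture. Gene expression in the cultured cells was compared between the lines, with 2 KM12 libraries set against 2 LS174T libraries. The KM12 libraries are parental cells, labelled with the GNAS R201H genotype, and GNAS knockout cells. The LS174T libraries both carry the label GNAS R201H, one as Dox (-) and the other as Dox (+). All 4 were grown in RPMI-1640 medium with serum. These are 4 of the 8 libraries of the series, the others being xenografts, tumors grown in mice from the same cells. Of the 60483 genes in the deposited count table, 14251 reached 1 CPM, a count scaled to the library total, in at least 2 of the 4 culture libraries and were tested. Below, the values of a gene are CPM in the parental and then the knockout library for KM12, and in the Dox (-) and then the Dox (+) library for LS174T.

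The labels do not say what Dox induces, whether the knockout cells are 1 clone, or whether any culture was repeated. The libraries of a line differ in GNAS state, so the spread within a line holds the GNAS difference and no repeat of the same cells. The p-values measure only the spread between these 4 libraries. With 1 line on each side, a difference between the lines can also be a difference between the patients, the tumors or the culture histories, and these cannot be told apart.

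Colorectal cancers arise from the lining of the large intestine, in which stem cells at the base of the crypts renew themselves under Wnt signals and give rise to absorptive cells and to mucus-secreting goblet cells. The tumors differ in how much of this program they keep, and in which of the growth, p53 and DNA repair pathways have been altered. A subset has lost DNA mismatch repair, and such tumors gather many small insertions and deletions in repeats. LS174T is widely used as a model of mucinous colorectal cancer with active Wnt signaling.

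Both lines held markers of colorectal epithelium, at levels that differed between them. Of the 12 markers of colorectal epithelium, 12 were measured in both lines. EPCAM, the epithelial adhesion molecule, had 525 and 557 CPM in KM12, against 647 and 644 CPM in LS174T, and the cell adhesion protein CDH1 had 347 and 450 CPM in KM12, against 354 and 323 CPM in LS174T. The intestinal markers CDX2, CDX1, CDH17, VIL1, LGALS4 and CEACAM5 were lower in KM12 by 2-fold or more. KRT20 did not pass the test, and CDX1, CDH17 and LGALS4 did not with all 8 libraries in the fit. Markers of other cell types were low. The 7 fibroblast markers summed to 6.46 and 9.38 CPM in KM12, against 7.02 and 6.26 CPM in LS174T. The 4 endothelial markers summed to at most 0.126 CPM in KM12 and 0.544 CPM in LS174T, and the 3 red blood cell markers to at most 0.828 CPM in KM12 and 0.211 CPM in LS174T. Of the 7 leukocyte markers LYZ was the exception. LYZ, the lysozyme that Paneth cells of the gut also secrete, had 244 and 285 CPM in KM12, against 43.1 and 33.2 CPM in LS174T, and the other 6 markers together had at most 0.801 CPM in KM12 and 2.3 CPM in LS174T.

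Library totals were 31868711 and 37735085 counts in KM12, against 36104180 and 32401946 counts in LS174T. The libraries of a line lay close to each other: 81 of the tested genes (0.568%) were 2-fold or more apart within KM12 and 32 (0.225%) within LS174T, on log2 of CPM plus 0.5. Between the lines the 4 library pairs had between 4033 and 4245 such genes (28.3% to 29.8%). GNAS, the stimulatory G protein subunit that the series is about, is the gene that each line varies within itself. It had 1020 and 272 CPM in KM12, against 638 and 1590 CPM in LS174T. The lines overlapped for it, and the difference did not pass the test (log2 difference -0.79 ± 1.01, adjusted p = 0.551).

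With p-values adjusted by Benjamini-Hochberg, edgeR's quasi-likelihood test called 9751 of the 14251 genes (68.4%) at an adjusted p under 0.05, 4845 higher and 4906 lower in KM12 than in LS174T. Because so many genes pass, a size was set beside the test. With a difference of at least 2-fold as well, 4416 genes were called (31% of those tested), of which 2098 (14.7%) were higher and 2318 (16.3%) lower in KM12. At 4-fold or more, 1021 genes (7.16%) were higher and 1231 (8.64%) lower. Without a test, the libraries of the lines did not overlap for 85.7% of genes, KM12 lying above LS174T in 42.9% and below it in 42.8%. Below, "called" without further words means this 2-fold rule, and each list of genes is read against the 31%. The median log2 difference over all genes tested was 0.00. Low genes were called more often: 58.7% of genes with a mean under 5 CPM, 27.7% of those at 5 to 50 CPM and 14.9% of those at 50 CPM or more. By gene type the shares were 28.9% of protein-coding genes, 48.6% of long intergenic and antisense RNAs, and 39.5% of pseudogenes. A gene absent from either line was tested only because the other line has it, so it could hardly fail to differ. The number of members tested is therefore given with each list. Log2 differences are KM12 minus LS174T with the standard error of the test. The 4 libraries leave 2 residual degrees of freedom, and the fit draws each gene's variance toward a trend over all genes. The standard errors and p-values therefore rest in part on the spread of other genes.

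**Figure D1:**
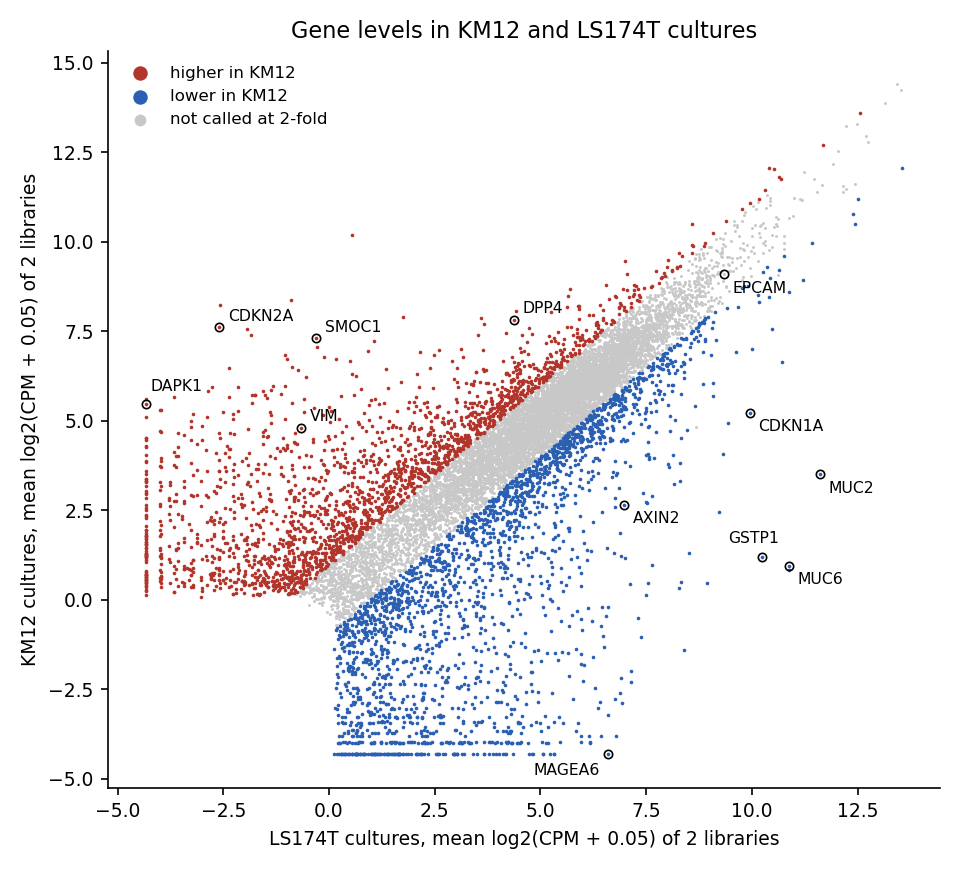
Mean level of each tested gene in KM12 (vertical axis) against LS174T (horizontal axis), both as log2 of CPM plus 0.05. Red points are the 2098 genes called higher in KM12, blue points the 2318 called lower, and grey points the rest. The genes at the left edge and along the bottom are those with nearly no counts in LS174T or in KM12, such as DAPK1 and MAGEA6.

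A set of genes was present in one line and at or near 0 in the other. With at least 10 CPM in both libraries of a line and under 0.1 CPM in both of the other, 37 genes (0.26% of those tested) were present in KM12 and near 0 in LS174T, and 90 (0.632%) were present in LS174T and near 0 in KM12. MGMT, which removes alkyl groups from guanine in DNA, had 1 count in KM12. Its values were 0.0314 and 0 CPM in KM12, against 17.8 and 19.8 CPM in LS174T, a ratio of LS174T over KM12 of 1300 (95% counting interval 233 to 51400). GSTP1, a glutathione transferase that inactivates reactive compounds, stayed above the limit of 0.1 CPM in KM12, with 2.54 and 1.92 CPM in KM12, against 1320 and 1090 CPM in LS174T (log2 difference -9.09 ± 0.18). In the other direction DAPK1, a kinase that promotes cell death, had 41 and 48 CPM in KM12, against 0 and 0 CPM in LS174T, and it was at least 507-fold higher in KM12 against a floor of 3 counts in each LS174T library. HOXD8, a homeobox factor of positional identity, was at least 218-fold higher in KM12, with 20.5 and 17.8 CPM in KM12, against 0 and 0 CPM in LS174T. MGMT and GSTP1 are known as genes whose promoters can be methylated in tumors, at the cytosines of CpG dinucleotides, and the 250 bases before the start of each of these 4 genes are printed to show how many such positions they hold. They were chosen after their values were seen. The bases are RefSeq's, on GRCh38.p14, 5′ to 3′ on the gene's strand, with every CpG in capitals.
MGMT: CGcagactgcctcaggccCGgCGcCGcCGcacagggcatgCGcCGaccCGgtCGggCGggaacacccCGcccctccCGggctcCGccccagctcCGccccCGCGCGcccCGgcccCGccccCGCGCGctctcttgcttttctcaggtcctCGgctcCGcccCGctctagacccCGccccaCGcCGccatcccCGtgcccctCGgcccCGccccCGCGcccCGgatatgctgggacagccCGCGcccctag
GSTP1: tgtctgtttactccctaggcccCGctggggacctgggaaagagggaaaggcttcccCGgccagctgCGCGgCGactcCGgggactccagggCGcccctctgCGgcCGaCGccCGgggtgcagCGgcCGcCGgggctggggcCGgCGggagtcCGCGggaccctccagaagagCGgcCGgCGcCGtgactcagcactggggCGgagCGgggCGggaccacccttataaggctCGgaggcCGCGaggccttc
HOXD8: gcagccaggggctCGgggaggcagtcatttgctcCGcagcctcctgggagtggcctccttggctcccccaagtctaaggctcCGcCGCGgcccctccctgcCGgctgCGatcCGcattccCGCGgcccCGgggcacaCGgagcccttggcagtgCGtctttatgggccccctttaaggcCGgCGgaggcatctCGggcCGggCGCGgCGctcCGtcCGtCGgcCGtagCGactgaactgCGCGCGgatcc
DAPK1: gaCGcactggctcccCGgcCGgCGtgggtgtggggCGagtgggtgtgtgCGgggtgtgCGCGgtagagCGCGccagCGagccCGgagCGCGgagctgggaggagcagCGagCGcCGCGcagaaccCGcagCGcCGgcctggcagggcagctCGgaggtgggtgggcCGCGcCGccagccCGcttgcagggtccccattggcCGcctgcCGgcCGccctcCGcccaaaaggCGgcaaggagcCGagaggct

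The window of MGMT (chr10:129466991-129467240, + strand) held 36 CpG, a number that 4.73% of the 27305 promoters in the RefSeq table reach. That of DAPK1 (chr9:87497617-87497866, + strand) held 32 CpG, which 9.26% reach. GSTP1 (chr11:67583562-67583811, + strand) and HOXD8 (chr2:176129455-176129704, + strand) had 28 CpG each, which 15.5% reach. These counts describe the sequence. Methylation was not analysed here. A comparison over the whole sets was not made, because only 26 of the 37 genes (70.3%) and 63 of the 90 (70%) had a promoter in the table.

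Other genes present in KM12 only were CGAS, the sensor of DNA in the cytoplasm, FRK, a kinase of the SRC group found in epithelia, and ROR1, a receptor for Wnt5a. CGAS had 20.5 and 23.5 CPM in KM12, against 0 and 0 CPM in LS174T, at least 251-fold higher in KM12. FRK had 43.3 and 54.6 CPM in KM12, against 0 and 0 CPM in LS174T, at least 557-fold higher. ROR1 had 18 and 14.8 CPM in KM12, against 0 and 0 CPM in LS174T, at least 187-fold higher. Of the 37 genes 36 were protein-coding and 14 had no counts in either LS174T library.

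The 90 genes present in LS174T only included members of the MAGEA family, which is normally active in the germ line, and ABCB1, the drug efflux pump also called P-glycoprotein. MAGEA6 had 0 and 0 CPM in KM12, against 92.6 and 102 CPM in LS174T, at least 1120-fold lower in KM12, and MAGEA3 had 0 and 0 CPM in KM12, against 38.9 and 36.2 CPM in LS174T, at least 431-fold lower. These are close copies of each other, so reads may be split between them. EN1, a homeobox factor of brain and skin development, had 0 and 0 CPM in KM12, against 40.8 and 38.3 CPM in LS174T, at least 454-fold lower. ABCB1 had 0.0314 and 0.0534 CPM in KM12, against 53.9 and 39.3 CPM in LS174T, a ratio of LS174T over KM12 of 1080 (95% counting interval 370 to 5250) from 3 counts in KM12. CES1, a carboxylesterase that converts ester drugs, had 0 and 0.0534 CPM in KM12, against 114 and 105 CPM in LS174T, a ratio of 3800 (95% counting interval 1050 to 31400) from 2 counts in KM12. RIPK3, the kinase of necroptosis, had 0 and 0.0267 CPM in KM12, against 22.5 and 17.2 CPM in LS174T, and TRIM22, an interferon-induced ubiquitin ligase, had 0 and 0.0267 CPM in KM12, against 22.5 and 17.6 CPM in LS174T. Each of these last 2 genes had 1 count in KM12. Of the 90 genes 81 were protein-coding, 19 had no counts in either KM12 library, and 21 (23.3%) lie on chromosome X, against 2 of the 37 KM12 genes and 436 of all 14251 genes tested (3.06%). Of 27 cancer-testis genes listed, 5 were tested and 5 were lower in KM12, with 0 counts in both KM12 libraries for each. Each of the 27 was under 1 CPM in both KM12 libraries, so those tested could only be lower in KM12. Their median log2 difference was -12.22 as fitted and -7.63 with each gene at its bound.

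Regulators of the intestinal lining differed in both directions. Of the 29 transcription factors of gut lineages 26 were tested, 7 called higher and 7 lower (31% over all genes tested), with a median log2 difference of 0.08. CDX2, the master regulator of intestinal identity, was lower in KM12, with 45.4 and 51.6 CPM in KM12, against 106 and 130 CPM in LS174T (-1.28 ± 0.12). CDX1, its relative, had 67.4 and 88.3 CPM in KM12, against 227 and 215 CPM in LS174T (-1.50 ± 0.13), a call lost with all 8 libraries in the fit (adjusted p = 0.13). SOX2, a stem cell and foregut factor, was higher in KM12, with 29.2 and 30.1 CPM in KM12, against 1.7 and 1.48 CPM in LS174T (4.22 ± 0.15). FOXA2, an endoderm factor that opens chromatin, was also higher, at 58.7 and 44.2 CPM in KM12, against 10 and 12.4 CPM in LS174T (2.20 ± 0.17). HNF4A, which drives absorptive and liver genes, had 161 and 172 CPM in KM12, against 170 and 160 CPM in LS174T, a difference of 0.01 ± 0.08 that did not pass the test (adjusted p = 0.911).

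Of 16 epithelial identity genes 3 were called higher and 5 lower in KM12, with a median of -0.45. KRT8 and KRT18, the keratin pair of simple epithelia, were both lower in KM12. KRT8 had 4320 and 4130 CPM in KM12, against 13500 and 10600 CPM in LS174T (-1.51 ± 0.12), and KRT18 had 1810 and 1680 CPM in KM12, against 5920 and 4830 CPM in LS174T (-1.62 ± 0.11). KRT7, a keratin of stomach and duct epithelium that the normal colon mostly lacks, was higher, with 288 and 247 CPM in KM12, against 21.3 and 21.6 CPM in LS174T (3.64 ± 0.10). KRT20, a keratin of differentiated intestinal cells, varied within the lines and its libraries overlapped, with 3.89 and 14.7 CPM in KM12, against 16.4 and 7.77 CPM in LS174T (adjusted p = 0.694). Its log2 difference was -1.64 without the KM12 knockout library and 0.27 without the KM12 parental library. The epithelial splicing factor ESRP1 and the factor GRHL2 were the other members called higher, at 1.60 ± 0.08 and 1.25 ± 0.08. EPCAM differed by -0.25 ± 0.07 (adjusted p = 0.0119), under 2-fold, and did not pass the test without the KM12 parental library (adjusted p = 0.0724). With all 8 libraries in the fit the list had 2 members called lower in place of 5.

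Among the 28 junction genes 25 were tested, 2 called higher and 6 lower (32%, against 31% over all genes tested), with a median of -0.25. DSP, the plakin that ties desmosomes to keratin, had 136 and 173 CPM in KM12, against 587 and 549 CPM in LS174T (-1.88 ± 0.12), and CLDN3, a sealing claudin, had 74.6 and 64.2 CPM in KM12, against 227 and 229 CPM in LS174T (-1.72 ± 0.09). GJB1, a connexin of gap junctions, was near 0 in KM12, at 0.0627 and 0.0801 CPM in KM12, against 21.9 and 17.8 CPM in LS174T. CLDN12, another claudin, was called higher (1.26 ± 0.09).

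Mucins, the gel-forming and membrane-bound glycoproteins of mucus, were lower in KM12 or did not pass the size and test. Of the 13 listed 10 were tested, 0 called higher and 6 lower, with a median of -2.14. MUC2, the main gel-forming mucin of the colon, had 25.8 and 4.86 CPM in KM12, against 3120 and 3140 CPM in LS174T (adjusted p = 0.0207). The KM12 libraries themselves lay far apart, so no single fold is given, and the call was lost without the LS174T Dox (-) library (adjusted p = 0.146) or the Dox (+) library (0.123). MUC6, a gel-forming mucin of gastric glands, was lower in KM12, with 2.48 and 1.42 CPM in KM12, against 1840 and 1910 CPM in LS174T (-9.93 ± 0.24). MUC13, a membrane mucin of the gut surface, had 127 and 114 CPM in KM12, against 788 and 792 CPM in LS174T (-2.71 ± 0.08), and MUC17, another of the brush border, had 0.69 and 2.54 CPM in KM12, against 574 and 414 CPM in LS174T. MUC5AC, the mucin of the stomach surface, did not pass the test, with 645 and 278 CPM in KM12, against 654 and 692 CPM in LS174T (-0.54 ± 0.46, adjusted p = 0.361). Without the KM12 parental library its log2 difference was -1.28. MUC5B, a gel-forming mucin of airways and glands, had 63.4 and 12.3 CPM in KM12, against 388 and 429 CPM in LS174T, and did not pass the test (adjusted p = 0.0809). Its log2 difference was -2.69 without the KM12 knockout library and -5.05 without the KM12 parental library. Fits with a KM12 library left out do not measure the spread within KM12, so they cannot decide these calls. Mucin genes hold long repeats, and how reads in them were counted is not given in the sources used here.

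Goblet cell genes beyond the mucins were read from a second list. Of its 27 genes 23 were tested, 1 called higher and 8 lower, with a median of -0.57, and the list holds MUC2. ATOH1, the factor that starts the secretory lineage, had 1.94 and 0.801 CPM in KM12, against 5.07 and 12.5 CPM in LS174T, and SPDEF, the factor that matures goblet cells, had 8 and 1.39 CPM in KM12, against 20.1 and 24.7 CPM in LS174T without passing the test (adjusted p = 0.0697). SPDEF was called lower with all 8 libraries in the fit (adjusted p = 0.0327). Its log2 difference was -1.48 without the KM12 knockout library and -4.01 without the KM12 parental library. ST6GALNAC1, which adds sialic acid to mucin sugars, had 21.5 and 12.4 CPM in KM12, against 270 and 296 CPM in LS174T (-4.07 ± 0.28). GALNT12, which starts the sugar chains of mucins, was the gene called higher, with 48.7 and 43.3 CPM in KM12, against 4.3 and 3.08 CPM in LS174T (3.63 ± 0.17). The trefoil peptide TFF3 did not pass the test, with 216 and 118 CPM in KM12, against 187 and 171 CPM in LS174T. Its log2 difference was 0.27 without the KM12 knockout library and -0.60 without the KM12 parental library. Fits with a KM12 library left out do not measure the spread within KM12. The mucin-folding enzyme AGR2 did not reach the 2-fold size (0.72 ± 0.12). Of 15 gastric-type genes 10 were tested, 1 called higher and 3 lower, with a median of -0.33. ANXA10, an annexin of gastric epithelium, was the one called higher, with 8.72 and 16.3 CPM in KM12, against 0.198 and 0.0605 CPM in LS174T.

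Absorptive and brush border genes were lower in KM12. Of 35 genes 20 were tested, 2 called higher and 15 lower, with a median of -2.66. The count of lower genes ran from 11 to 16 over the other settings tried. VIL1, the villin that bundles actin in microvilli, had 52.4 and 54 CPM in KM12, against 351 and 296 CPM in LS174T (-2.60 ± 0.10), and FABP1, a fatty acid carrier, had 1 and 1.87 CPM in KM12, against 34.3 and 36.7 CPM in LS174T (-4.60 ± 0.23). GUCY2C, the guanylin receptor of intestinal cells, had 1.29 and 1.82 CPM in KM12, against 30.3 and 33 CPM in LS174T (-4.33 ± 0.18). CEACAM5, the carcinoembryonic antigen, had 113 and 148 CPM in KM12, against 1080 and 966 CPM in LS174T (-2.97 ± 0.15). CEACAM6 and CEACAM7 were lower as well, and as close copies the CEACAM genes may share reads. DPP4, a peptidase of the brush border, went the other way, with 198 and 258 CPM in KM12, against 26.6 and 16.1 CPM in LS174T (3.41 ± 0.29), as did the sulfate transporter SLC26A2 (1.29 ± 0.14). Enteroendocrine and neural-type genes were mostly too low, with 5 of 28 tested. Of these SCG2, a granin of secretory granules, was called higher, at 9.44 and 7.37 CPM in KM12, against 0.962 and 1.36 CPM in LS174T, and SYP and UCHL1 were called lower.

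**Figure D2:**
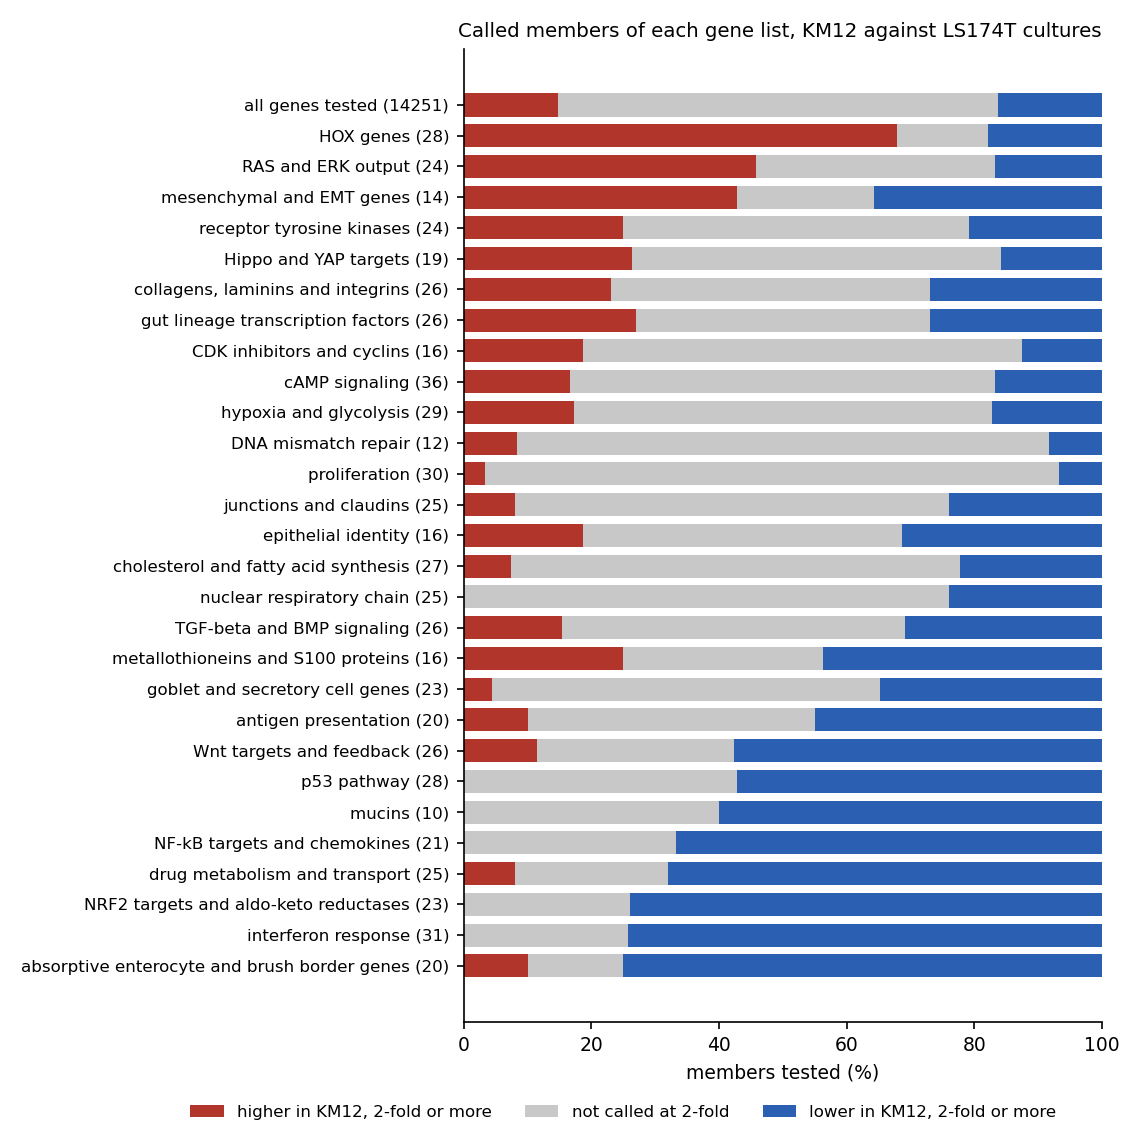
Share of the tested members of each gene list called at 2-fold or more, with genes higher in KM12 in red and lower in blue, beside the same over all genes tested. The interferon list has 0 members called higher and 23 of 31 lower, and the HOX list has 19 of 28 called higher and 5 lower.

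HOX genes encode the homeobox factors that give cells their position along the body, in 4 clusters on 4 chromosomes, and adult tissues and tumors keep characteristic sets of them. Of 39 genes 28 were tested, 19 called higher and 5 lower in KM12, with a median of 3.37. The clusters differed. In the HOXA cluster 10 of 11 genes were tested, 8 called higher and 0 lower. HOXA13, the hindgut member, had 44.1 and 44.8 CPM in KM12, against 16.9 and 19.3 CPM in LS174T (1.30 ± 0.10), HOXA9 had 104 and 101 CPM in KM12, against 47.2 and 51.5 CPM in LS174T (1.05 ± 0.08), and HOXA5 had 20.3 and 21.3 CPM in KM12, against 0.991 and 1.54 CPM in LS174T (4.04 ± 0.21). HOXA10 did not pass the test, with 15.5 and 16.2 CPM in KM12, against 14.7 and 16.6 CPM in LS174T. HOXA11 went the other way from the called genes, lower in KM12 but under 2-fold (log2 difference -0.64). It did not pass the test with all 8 libraries in the fit (adjusted p = 0.0787).

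The HOXB cluster ran the other way. Of its 10 genes 8 were tested, 1 called higher and 5 lower, with a median of -1.37. HOXB9 had 7.59 and 6.33 CPM in KM12, against 16.8 and 19.1 CPM in LS174T (-1.37 ± 0.15), a call lost with all 8 libraries in the fit (adjusted p = 0.163), and HOXB8 had 0.502 and 0.107 CPM in KM12, against 9.62 and 8.34 CPM in LS174T. HOXB4 was the gene called higher, at 1.79 and 1.42 CPM in KM12, against 0.198 and 0.0302 CPM in LS174T. In that fit 2 members of the whole HOX list were called lower in place of 5.

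HOXC and HOXD genes were low in LS174T, and part of them was detected in KM12. Each of the 9 HOXC and 9 HOXD genes was under 1 CPM in both LS174T libraries, and 5 of each reached 1 CPM in both KM12 libraries. Those tested could therefore only be higher in KM12. HOXC6, of limb and trunk patterning, had 12.2 and 12.8 CPM in KM12, against 0.17 and 0.363 CPM in LS174T. HOXC10 had 10.4 and 10.1 CPM in KM12, against 0 and 0 CPM in LS174T, at least 117-fold higher, and HOXC11 had 9.57 and 9.75 CPM in KM12, against 0 and 0 CPM in LS174T, at least 110-fold higher. In the HOXD cluster HOXD8, whose promoter is printed above, was joined by HOXD9 with 15.6 and 13.9 CPM in KM12, against 0 and 0.0302 CPM in LS174T and HOXD1 with 2.54 and 3.23 CPM in KM12, against 0 and 0 CPM in LS174T. The median of the tested HOXC genes was 10.15 as fitted and 5.55 with genes at 0 set to their bound, and that of HOXD was 9.64 and 5.04. Antisense RNAs run through these clusters, and the library kit as described does not mark strand, so reads of a gene and its antisense partner cannot be told apart.

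**Figure D3:**
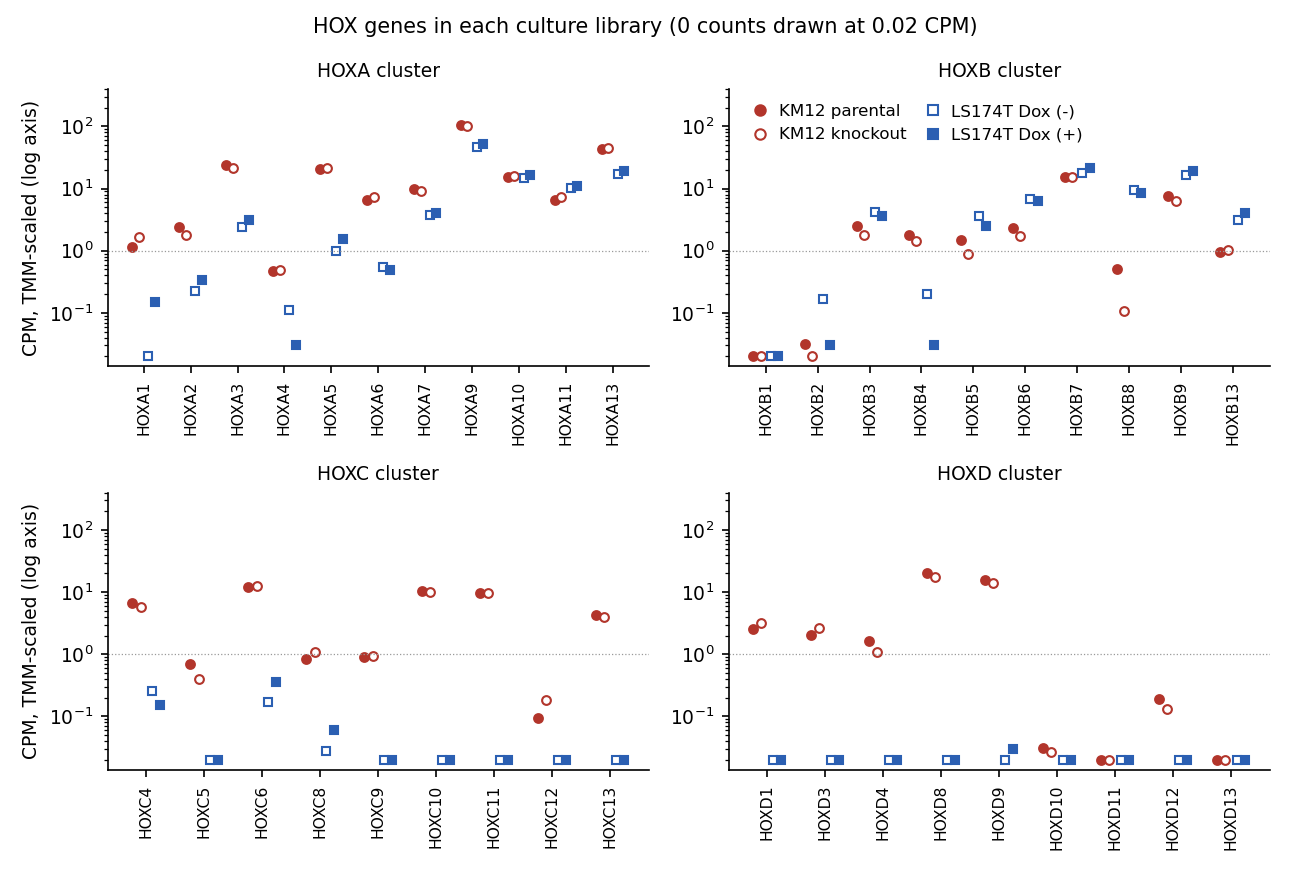
CPM of the HOX genes by cluster, on a log axis, with the KM12 libraries as circles on the left and the LS174T libraries as squares on the right of each gene. Values of 0 are drawn at 0.02 CPM. KM12 lies above LS174T through most of HOXA, below it through most of HOXB, and LS174T is under 1 CPM across HOXC and HOXD.

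In Wnt signaling, beta-catenin joins TCF and LEF factors to switch on target genes, several of which feed back to damp the pathway. Most of these targets were lower in KM12. Of 28 genes 26 were tested, 3 called higher and 15 lower, with a median of -1.61. AXIN2, a feedback scaffold that promotes the breakdown of beta-catenin, had 6.12 and 6.36 CPM in KM12, against 138 and 117 CPM in LS174T (-4.35 ± 0.12, adjusted p = 2.06e-07). NKD1, which damps Dishevelled, had 0.47 and 0.641 CPM in KM12, against 89.3 and 83.3 CPM in LS174T (-7.25 ± 0.15). RNF43, a ubiquitin ligase that removes Wnt receptors, had 97.5 and 88 CPM in KM12, against 325 and 313 CPM in LS174T (-1.78 ± 0.08). In each of these genes both KM12 libraries lay below both LS174T libraries, as in 42.8% of all genes tested.

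Crypt and stem cell genes among the targets were lower too. LGR5, the receptor that marks crypt stem cells, had 27.8 and 17 CPM in KM12, against 86.7 and 115 CPM in LS174T (-2.17 ± 0.28), and ASCL2, a stem cell transcription factor, had 40.3 and 23 CPM in KM12, against 128 and 145 CPM in LS174T (-2.11 ± 0.28), a call lost with all 8 libraries in the fit (adjusted p = 0.0748). EPHB2 and EPHB3, receptors that sort cells along the crypt, had -3.25 ± 0.16 and -4.32 ± 0.17. EPHB3 stood at 15.2 and 11.2 CPM in KM12, against 240 and 283 CPM in LS174T. The secreted inhibitors NOTUM and DKK4 were below 0.5 CPM in KM12, with 0.408 and 0.427 CPM in KM12, against 6.2 and 7.38 CPM in LS174T for NOTUM and 0.0627 and 0.321 CPM in KM12, against 13.4 and 13.4 CPM in LS174T for DKK4.

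Against this pattern LEF1, a partner of beta-catenin, was higher in KM12, with 27.3 and 27.5 CPM in KM12, against 3 and 3.36 CPM in LS174T (3.11 ± 0.14). NKD2, the relative of NKD1, was higher as well, with 27.2 and 22.8 CPM in KM12, against 0.453 and 0.605 CPM in LS174T (5.56 ± 0.21), so the pair of NKD genes had opposite directions. PROM1, a stem cell surface protein, was the third, with 3.26 and 3.18 CPM in KM12, against 0.0566 and 0.0302 CPM in LS174T, and its call was lost with all 8 libraries in the fit (adjusted p = 0.0546). The growth regulator MYC, shared by Wnt and other pathways, did not reach the 2-fold size, with 390 and 357 CPM in KM12, against 423 and 444 CPM in LS174T. CCND1, the cyclin of early G1, was lower at 274 and 299 CPM in KM12, against 865 and 765 CPM in LS174T (-1.51 ± 0.09).

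Growth factor receptors and their outputs divided in another way. Of 37 receptor tyrosine kinases 24 were tested, 6 called higher and 5 lower. FGFR4, a receptor for FGF19, was higher in KM12, with 74.5 and 63.1 CPM in KM12, against 9.96 and 11.5 CPM in LS174T (2.68 ± 0.12), and so was TYRO3 (1.31 ± 0.12). NTRK2, a receptor for brain-derived neurotrophic factor, had 14 and 8.52 CPM in KM12, against 0.538 and 0.333 CPM in LS174T (4.67 ± 0.36). EGFR did not pass the test, with 74.5 and 78.2 CPM in KM12, against 74.3 and 72.4 CPM in LS174T (adjusted p = 0.514). DDR1, a collagen receptor, was lower (-1.08 ± 0.09), as were EPHB2 and EPHB3 above. KIT had 0 counts in KM12, against 2.72 and 3.39 CPM in LS174T. Of 9 EGF family ligands 6 were tested. HBEGF and BTC were called higher, at 1.47 ± 0.11 and 1.18 ± 0.15, and EGF lower, with 0 and 0.134 CPM in KM12, against 12.7 and 11.8 CPM in LS174T.

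Genes induced through RAS and ERK were more often higher in KM12. Of 24 genes 24 were tested, 11 called higher and 4 lower, with a median of 0.74. EGR1, an immediate early factor, had 387 and 432 CPM in KM12, against 50.5 and 53.2 CPM in LS174T (2.98 ± 0.09). Feedback inhibitors of the pathway were higher as well. DUSP6, a phosphatase of ERK, had 185 and 194 CPM in KM12, against 65.7 and 52.1 CPM in LS174T (1.69 ± 0.12), SPRY4 had 62.7 and 66.5 CPM in KM12, against 15.2 and 14.4 CPM in LS174T (2.13 ± 0.09), and SPRED1 had 99.9 and 98.9 CPM in KM12, against 35.4 and 34 CPM in LS174T (1.52 ± 0.08). ETV5, an ETS factor downstream of ERK, had 81.1 and 79.5 CPM in KM12, against 21.7 and 23.2 CPM in LS174T (1.84 ± 0.08), and ETV1 had 33.6 and 32.1 CPM in KM12, against 0.255 and 0.0907 CPM in LS174T. SPHK1, a lipid kinase, had 12.4 and 15.5 CPM in KM12, against 0.849 and 0.877 CPM in LS174T (4.01 ± 0.21). DUSP5, another ERK phosphatase, went the other way and was near 0 in KM12, with 0.0314 and 0.0801 CPM in KM12, against 16.2 and 11.7 CPM in LS174T. CCND1, IER3 and EMP1 were the other members called lower, and the call of EMP1 was lost without the KM12 parental library (adjusted p = 0.0616) or the LS174T Dox (-) library (0.158), and with all 8 libraries in the fit (0.119).

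**Figure D4:**
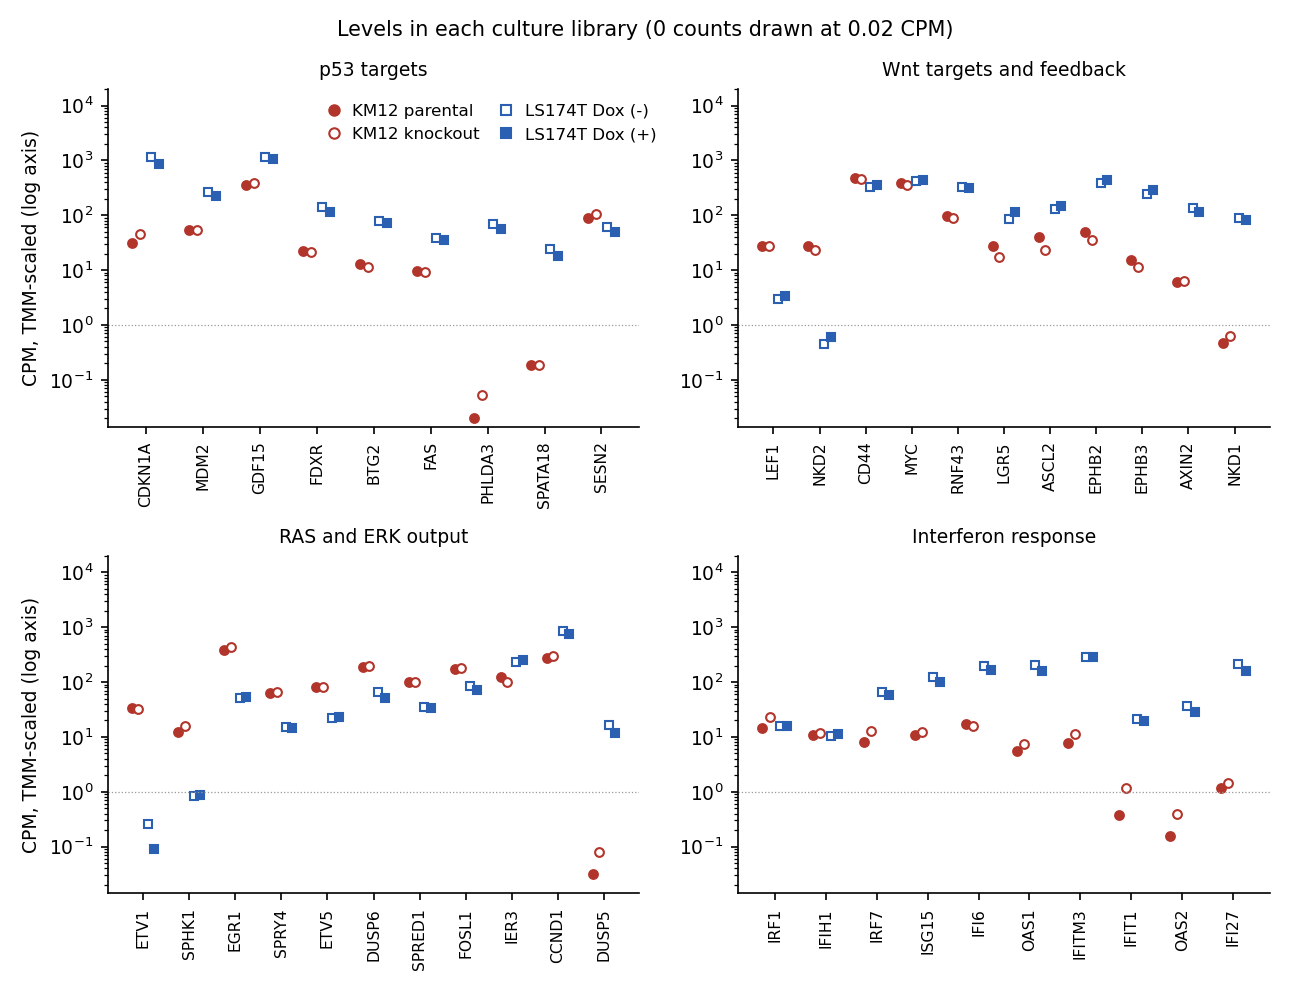
CPM of members of the p53 pathway, Wnt, RAS and ERK, and interferon lists on a log axis, with KM12 libraries as circles on the left and LS174T libraries as squares on the right of each gene. Values of 0 are drawn at 0.02 CPM. LS174T lies above KM12 in most p53, Wnt and interferon genes shown, and below it in EGR1, DUSP6 and SPRY4.

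The transcription factor p53 switches on genes of cell cycle arrest, DNA repair and cell death. Its targets were lower in KM12. Of 28 genes 28 were tested, 0 called higher and 16 lower, with a median of -1.47. CDKN1A, the cell cycle inhibitor p21, had 30.9 and 45.2 CPM in KM12, against 1150 and 863 CPM in LS174T (-4.72 ± 0.26, adjusted p = 7.84e-05). MDM2, the ligase that degrades p53, had 53.3 and 53.7 CPM in KM12, against 260 and 225 CPM in LS174T (-2.18 ± 0.09). FDXR, a mitochondrial reductase, had 22 and 21.3 CPM in KM12, against 144 and 114 CPM in LS174T (-2.57 ± 0.13), and DDB2, a DNA damage sensor, had 15.2 and 14 CPM in KM12, against 77.6 and 73.5 CPM in LS174T (-2.37 ± 0.09). PHLDA3, an inhibitor of AKT, was near 0 in KM12, with 0 and 0.0534 CPM in KM12, against 69 and 55.5 CPM in LS174T, and SPATA18, which acts on damaged mitochondria, had 0.188 and 0.187 CPM in KM12, against 24.4 and 18.1 CPM in LS174T (-6.80 ± 0.28). GDF15, a stress-induced hormone, had 354 and 380 CPM in KM12, against 1170 and 1080 CPM in LS174T (-1.61 ± 0.08). The sestrin SESN2 was higher in KM12 but under 2-fold (0.82 ± 0.12), and SESN1 was lower (-2.56 ± 0.14).

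CDK inhibitors differed in kind. CDKN2A, the gene of p16 and ARF, had 182 and 207 CPM in KM12, against 0.0283 and 0.302 CPM in LS174T, and its neighbor CDKN2B had 19.9 and 26.2 CPM in KM12, against 2.58 and 1.9 CPM in LS174T (3.36 ± 0.21). An antisense RNA runs across CDKN2B, and without strand its reads cannot be told apart. The p21 gene CDKN1A was thus lower in KM12 while CDKN2A and CDKN2B were higher. Their relatives were not called, CDKN2C at 0.11 ± 0.20 (adjusted p = 0.635) and CDKN2D at 0.76 ± 0.18. Over the list of 16 CDK inhibitors and cyclins 3 were called higher and 2 lower (31.2%, against 31% over all genes tested), with a median of 0.05. RB1, the target of the cyclin kinases, had 63.8 and 64.6 CPM in KM12, against 61.2 and 69.3 CPM in LS174T and did not pass the test.

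Few proliferation genes reached the 2-fold size. Of 30 genes 30 were tested, 1 called higher and 2 lower, with a median of 0.16. TOP2A, the topoisomerase of dividing cells, had 339 and 357 CPM in KM12, against 116 and 162 CPM in LS174T (1.32 ± 0.15). TYMS, the thymidylate synthase that fluorouracil inhibits, was lower in KM12, with 18.5 and 18.6 CPM in KM12, against 86.7 and 90.1 CPM in LS174T (-2.25 ± 0.08), as was RRM2, a subunit of ribonucleotide reductase (-1.15 ± 0.15). MKI67 had 388 and 516 CPM in KM12, against 219 and 298 CPM in LS174T (0.81 ± 0.20), under 2-fold, and did not pass the test without the LS174T Dox (-) library (adjusted p = 0.0664). In a list of 12 mismatch repair genes POLD1, a DNA polymerase subunit, was called higher (1.12 ± 0.08), and the repair protein PMS2 had 29 and 31 CPM in KM12, against 22.3 and 21.9 CPM in LS174T.

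Interferons signal through STAT factors to switch on a large set of antiviral genes, and many cell lines keep some of this program on at rest. It was lower in KM12. Of 31 genes 31 were tested, 0 called higher and 23 lower, with a median of -3.46, against a background of 16.3% called lower. IFI27, a mitochondrial interferon-induced protein, had 1.19 and 1.47 CPM in KM12, against 214 and 160 CPM in LS174T (-7.12 ± 0.21, adjusted p = 9.72e-07). OAS1, which makes the signal that activates RNase L, had 5.58 and 7.29 CPM in KM12, against 208 and 161 CPM in LS174T (-4.83 ± 0.19). ISG15, a ubiquitin-like modifier, had 10.7 and 12.4 CPM in KM12, against 123 and 102 CPM in LS174T (-3.28 ± 0.13), and IFITM3, which blocks virus entry, had 7.78 and 11.2 CPM in KM12, against 287 and 286 CPM in LS174T (-4.91 ± 0.17). The IFITM genes are close copies and their counts may be shared. MX1, a GTPase that blocks viruses, had 1.32 and 0.881 CPM in KM12, against 26.6 and 24.2 CPM in LS174T (-4.54 ± 0.20).

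Among the regulators the differences were smaller than in the 5 genes above. IRF7, a factor that amplifies the response, had 8 and 13 CPM in KM12, against 65 and 58.3 CPM in LS174T (-2.54 ± 0.22). STAT2, IRF1 and IRF9 were not called. Without the LS174T Dox (+) library the log2 difference of IRF9 was -1.24, in a fit that does not measure the spread within LS174T. The RNA sensor IFIH1 had 10.8 and 11.9 CPM in KM12, against 10.5 and 11.4 CPM in LS174T and did not pass the test (adjusted p = 0.754), while its relative RIGI was lower (-1.47 ± 0.16). CGAS, the DNA sensor, was the gene described above as present in KM12 and at 0 in LS174T.

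Promoters of 3 of these genes are printed because interferon-induced factors are known to bind a repeated GAAA motif near the start of their targets. The motif searched was GAAANNGAAA, or TTTCNNTTTC on the other strand, in the 250 bases before the RefSeq start, and matches that overlap were counted apart. Capitals mark the matches. The 3 were chosen after the values were seen: IFI27 on chr14:94110486-94110735 (+ strand), ISG15 on chr1:1013247-1013496 (+ strand) and IFI6 on chr1:27672193-27672442 (- strand), all on GRCh38.p14 and written 5′ to 3′ on the gene's strand.
IFI27: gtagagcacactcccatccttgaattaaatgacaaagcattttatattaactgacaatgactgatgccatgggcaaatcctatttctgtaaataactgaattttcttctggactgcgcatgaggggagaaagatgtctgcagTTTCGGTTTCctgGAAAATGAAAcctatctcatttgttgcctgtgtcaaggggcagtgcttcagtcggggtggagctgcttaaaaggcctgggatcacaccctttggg
ISG15: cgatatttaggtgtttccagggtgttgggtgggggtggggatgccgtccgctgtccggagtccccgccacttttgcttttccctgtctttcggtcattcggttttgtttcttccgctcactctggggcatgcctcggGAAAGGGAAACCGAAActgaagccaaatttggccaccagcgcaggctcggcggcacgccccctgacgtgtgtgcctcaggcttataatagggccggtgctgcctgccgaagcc
IFI6: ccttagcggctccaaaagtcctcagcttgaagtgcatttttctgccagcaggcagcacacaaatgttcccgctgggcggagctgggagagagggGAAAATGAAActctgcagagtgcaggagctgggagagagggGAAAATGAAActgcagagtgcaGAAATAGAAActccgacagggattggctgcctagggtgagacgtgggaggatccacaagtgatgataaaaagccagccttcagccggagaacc

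These 3 windows held 2, 2 and 3 matches. Of the 31 genes 24 had a promoter in the table. A match was found in 11 of the 16 genes called lower that had one, and in 2 of the 8 not called. Of all 27305 promoters 3.07% had a match. OAS1 and MX1, called lower, had none in this window. A match is a sequence and does not show that a factor is bound there.

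Genes of antigen presentation, by which cells show peptides to T cells, were lower in part. Of 25 genes 20 were tested, 2 called higher and 9 lower, with a median of -0.53. HLA-C, a class I molecule, was lower in KM12, with 25.2 and 27.2 CPM in KM12, against 283 and 249 CPM in LS174T (-3.34 ± 0.10). HLA-B, another, was higher, with 135 and 156 CPM in KM12, against 27.9 and 23.8 CPM in LS174T (2.49 ± 0.11). These genes are close copies that differ between people and from the genome reads were aligned to, so their counts are uncertain. Their partner B2M did not differ beyond the spread, with 500 and 574 CPM in KM12, against 568 and 513 CPM in LS174T. NLRC5, the factor that drives class I genes, had 10.8 and 11.1 CPM in KM12, against 84.2 and 69 CPM in LS174T (-2.81 ± 0.12), and the peptide pump TAP1 had 24 and 21.1 CPM in KM12, against 91.3 and 78.5 CPM in LS174T (-1.91 ± 0.11). ERAP2, a peptidase that trims peptides, was the other gene called higher, with 41.9 and 50.4 CPM in KM12, against 4.5 and 3.54 CPM in LS174T (3.52 ± 0.16).

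NF-kB drives genes of inflammation and survival, and its targets were lower in KM12. Of 27 genes 21 were tested, 0 called higher and 14 lower, with a median of -1.82. IL32, a proinflammatory cytokine, had 1.13 and 1.52 CPM in KM12, against 152 and 126 CPM in LS174T (-6.69 ± 0.17), TNFAIP2 had 0.753 and 1.44 CPM in KM12, against 230 and 142 CPM in LS174T (-7.37 ± 0.41) and BIRC3, an inhibitor of cell death, had 5.36 and 6.7 CPM in KM12, against 33.7 and 36.1 CPM in LS174T (-2.53 ± 0.14). CXCL8, which attracts neutrophils, had 2.48 and 0.695 CPM in KM12, against 29.4 and 35.4 CPM in LS174T, and CXCL1 had 6.77 and 4.25 CPM in KM12, against 39.2 and 43.1 CPM in LS174T (-2.91 ± 0.21). The subunit NFKB2 had 63.7 and 62.6 CPM in KM12, against 62.7 and 61.7 CPM in LS174T and did not pass the test, and RELB and the inhibitor NFKBIE were higher in KM12 but under 2-fold (0.66 ± 0.14 and 0.76 ± 0.16).

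Enzymes that handle reactive and foreign compounds were lower in KM12. NRF2 is the factor that induces many of them under oxidative stress. Of 24 NRF2 targets and aldo-keto reductases 23 were tested, 0 called higher and 17 lower, with a median of -1.60. NQO1, a quinone reductase, had 329 and 372 CPM in KM12, against 1510 and 1220 CPM in LS174T (-1.96 ± 0.12). GPX2, the glutathione peroxidase of the gut, had 548 and 467 CPM in KM12, against 1410 and 1330 CPM in LS174T (-1.43 ± 0.09). AKR1B1, which reduces sugars and aldehydes, was near 0 in KM12, with 0.0627 and 0.0534 CPM in KM12, against 101 and 94.3 CPM in LS174T, and AKR1B10 had 1.57 and 3.69 CPM in KM12, against 405 and 324 CPM in LS174T. AKR1C2, a reductase of steroids, had 1.19 and 1.52 CPM in KM12, against 331 and 311 CPM in LS174T (-7.87 ± 0.13), and the AKR1C genes are close copies whose reads may be split. TXNRD1 and the cystine transporter SLC7A11, both NRF2 targets, did not pass the test, with 444 and 616 CPM in KM12, against 523 and 453 CPM in LS174T for TXNRD1 and 204 and 158 CPM in KM12, against 173 and 209 CPM in LS174T for SLC7A11.

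Of 34 drug metabolism and transport genes 25 were tested, 2 called higher and 17 lower, with a median of -2.05. CYP1A1, which the aryl hydrocarbon receptor induces, had 17.4 and 16.2 CPM in KM12, against 801 and 505 CPM in LS174T (-5.28 ± 0.28). UGT1A1, which joins glucuronic acid to bilirubin and to the active form of irinotecan, had 26.6 and 34.6 CPM in KM12, against 708 and 680 CPM in LS174T (-4.50 ± 0.14). The UGT1A genes share exons, so their counts cannot be fully separated. SULT1A1, a sulfotransferase, had 14.6 and 12.6 CPM in KM12, against 62 and 50.6 CPM in LS174T (-2.05 ± 0.13), and CES2, which activates irinotecan, had 56.6 and 50.3 CPM in KM12, against 152 and 137 CPM in LS174T (-1.44 ± 0.09). The efflux pump ABCG2 was higher, with 49.8 and 62.8 CPM in KM12, against 11.8 and 15.2 CPM in LS174T (2.06 ± 0.16), in contrast with ABCB1 above. DPYD, which breaks down fluorouracil, was the other called higher, at 1.85 and 1.58 CPM in KM12, against 0.0283 and 0 CPM in LS174T.

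In the TGF-beta pathway, 26 of 31 genes were tested, 4 called higher and 8 lower, with a median of -0.38. TGFB1, the ligand, had 115 and 112 CPM in KM12, against 0.368 and 0.514 CPM in LS174T (8.01 ± 0.14, adjusted p = 5.96e-08). Its receptor TGFBR2, which is often broken by small deletions or insertions in a repeat when mismatch repair is lost, had 120 and 110 CPM in KM12, against 47.6 and 42.1 CPM in LS174T (1.36 ± 0.09). SMAD7, the inhibitor that the pathway induces, was lower, with 2.32 and 2.35 CPM in KM12, against 19.6 and 18 CPM in LS174T (-3.01 ± 0.15), as was SMAD2, a signal carrier (-1.52 ± 0.11). On the BMP side BMP4 and the targets ID2 and ID3 were lower, at -1.08 ± 0.09, -1.13 ± 0.16 and -1.08 ± 0.08. BAMBI, a decoy receptor, was higher (1.80 ± 0.10). SMOC1, a secreted BMP modulator, had 277 and 91.3 CPM in KM12, against 0.396 and 1.42 CPM in LS174T, and its call was lost without the LS174T Dox (-) library (adjusted p = 0.145) or the Dox (+) library (0.103). GREM1, a secreted BMP antagonist, had 0 counts in KM12, against 13.4 and 9.49 CPM in LS174T.

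Mesenchymal genes did not move as a block. Of 25 genes 14 were tested, 6 called higher and 5 lower, with a median of 0.78. VIM, the intermediate filament of mesenchymal cells, had 30 and 25.9 CPM in KM12, against 0.594 and 0.574 CPM in LS174T (5.57 ± 0.18), SNAI1, a repressor of epithelial genes, had 12.6 and 13.2 CPM in KM12, against 0.962 and 1.6 CPM in LS174T (3.33 ± 0.24), and CAV1, the coat protein of caveolae, had 18.7 and 34.4 CPM in KM12, against 0.226 and 0.363 CPM in LS174T. S100A4 and ACTA2 were among the lower, S100A4 with 4.92 and 4.54 CPM in KM12, against 19.3 and 14.9 CPM in LS174T (-1.86 ± 0.17). Of 33 collagens, laminins and integrins 26 were tested, 6 called higher and 7 lower, with a median of 0.23. COL18A1, the collagen that yields endostatin, had 2.16 and 1.66 CPM in KM12, against 220 and 183 CPM in LS174T (-6.73 ± 0.16). COL17A1 and ITGB4, parts of the hemidesmosome that anchors epithelium, were higher, COL17A1 with 332 and 405 CPM in KM12, against 190 and 136 CPM in LS174T (1.18 ± 0.19) and ITGB4 with 986 and 986 CPM in KM12, against 566 and 403 CPM in LS174T (1.02 ± 0.16). COL7A1, the anchoring fibril collagen, had 27.4 and 31.4 CPM in KM12, against 3 and 2.6 CPM in LS174T (3.39 ± 0.15).

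The Hippo pathway restrains the coactivators YAP1 and WWTR1, also called TAZ. Of 21 genes 19 were tested, 5 called higher and 3 lower, with a median of 0.28. WWTR1 had 21.9 and 19.2 CPM in KM12, against 0.51 and 0.574 CPM in LS174T (5.23 ± 0.20), whereas YAP1 had 73.2 and 78.8 CPM in KM12, against 94.9 and 99.6 CPM in LS174T and stayed under 2-fold. Targets were divided: CCN1 was higher (2.25 ± 0.16) and CCN2 lower (-1.10 ± 0.13). F3, the tissue factor of clotting, had 132 and 77.8 CPM in KM12, against 16 and 18.7 CPM in LS174T (2.59 ± 0.29), and the kinase NUAK2 had 1.63 and 2.78 CPM in KM12, against 22.5 and 25.6 CPM in LS174T (-3.43 ± 0.23).

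GNAS acts by raising cAMP, and the other parts of that pathway were compared as well. Of 45 genes 36 were tested, 6 called higher and 6 lower (33.3%, against 31% over all genes tested), with a median of 0.08. GNAI1, an inhibitory G protein subunit, had 29.6 and 26.6 CPM in KM12, against 2.72 and 3.14 CPM in LS174T (3.26 ± 0.15). Among the adenylyl cyclases, which make cAMP, ADCY7 and ADCY3 were higher, ADCY7 with 26.9 and 37 CPM in KM12, against 6.82 and 4.02 CPM in LS174T (2.56 ± 0.28) and ADCY3 with 70.1 and 64.8 CPM in KM12, against 24.6 and 27.6 CPM in LS174T (1.37 ± 0.10). VIPR1, a receptor that couples to the stimulatory G protein, had 13 and 20.4 CPM in KM12, against 2.15 and 1.39 CPM in LS174T (3.23 ± 0.30).

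Some subunits of protein kinase A, which cAMP activates, differed between the lines. PRKAR2B, a regulatory subunit, had 5.96 and 5.21 CPM in KM12, against 0 and 0 CPM in LS174T, at least 63.6-fold higher in KM12. PRKACB, a catalytic subunit, was lower, with 0.439 and 0.828 CPM in KM12, against 5.77 and 5.56 CPM in LS174T (-3.13 ± 0.30), and the inhibitor PKIG was near 0 in KM12, with 0.0941 and 0.0267 CPM in KM12, against 22.8 and 24.7 CPM in LS174T. The subunits with the broadest expression did not pass the test: PRKACA had 82.1 and 91.8 CPM in KM12, against 88 and 89.7 CPM in LS174T, and PRKAR1A had 168 and 155 CPM in KM12, against 154 and 169 CPM in LS174T. SIK1, a kinase that CREB induces and that feeds back on it, had 1 count in KM12, with 0.0314 and 0 CPM in KM12, against 2.12 and 3.36 CPM in LS174T.

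Single metabolic genes differed, while the share of their lists called in either direction was near or below that over all genes tested. Of 31 hypoxia and glycolysis genes 29 were tested, 5 called higher and 5 lower (34.5%, against 31% over all genes tested), with a median of -0.36. At an adjusted p under 0.05 and any size, 8 were higher and 14 lower, against 34% and 34.4% over all genes tested. VEGFA, the signal for vessel growth, had 413 and 382 CPM in KM12, against 139 and 126 CPM in LS174T (1.58 ± 0.08), while BNIP3, another hypoxia gene that marks mitochondria for removal, had 0.972 and 0.881 CPM in KM12, against 39.4 and 37.2 CPM in LS174T (-5.37 ± 0.15). The phosphofructokinase genes had opposite signs, PFKP at 1.72 ± 0.07 and PFKL at -1.10 ± 0.07. SLC16A3, a lactate exporter, was lower (-1.96 ± 0.07). Of 27 cholesterol and fatty acid synthesis genes 2 were called higher and 6 lower (29.6%), with a median of -0.45. At any size 6 were higher and 18 lower. SCD, which makes monounsaturated fatty acids, had 341 and 373 CPM in KM12, against 46 and 53.9 CPM in LS174T (2.84 ± 0.10). FDFT1, the squalene synthase, had 113 and 119 CPM in KM12, against 361 and 318 CPM in LS174T (-1.55 ± 0.09). Of 25 nuclear genes of the respiratory chain 0 were called higher and 6 lower (24%), with a median of -0.58. At any size 2 were higher and 19 lower, so this list leaned to 1 side, mostly under 2-fold. SDHA, a subunit of complex II, had 123 and 120 CPM in KM12, against 460 and 453 CPM in LS174T (-1.91 ± 0.07).

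Metallothioneins bind zinc and copper, and S100 proteins bind calcium. Of 21 genes 16 were tested, 4 called higher and 7 lower, with a median of -0.74. MT2A had 8.53 and 5.77 CPM in KM12, against 40.3 and 49.3 CPM in LS174T (-2.65 ± 0.20) and MT1X had 3.01 and 3.05 CPM in KM12, against 15.5 and 19.5 CPM in LS174T (-2.53 ± 0.17), and these are close copies. CALB1, the calcium buffer calbindin, had 53.6 and 52.9 CPM in KM12, against 0.425 and 0.393 CPM in LS174T (7.01 ± 0.15). S100A10 and S100A11 were higher, at 1.29 ± 0.14 and 1.07 ± 0.09.

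By position, 2 chromosomes stood apart. On chromosome 21, 51 of 135 tested genes (37.8%) were called lower in KM12 and 5 higher, with a median log2 difference of -0.80. On chromosome 18 these were 62 of 193 (32.1%) and 20, with a median of -0.71. SMAD2 and TYMS, described above, lie on chromosome 18. Its window from 20 to 30 Mb went the other way, with 10 genes called higher, 1 lower and a median of 0.91. The medians of the other chromosomes lay between -0.20, on chromosome 6, and 0.29, on chromosome 8. In the xenografts the median was -0.29 on chromosome 21 and -0.85 on chromosome 18. Within chromosome 6, which carries the HLA genes, the first 4 windows of 10 Mb had medians of -0.99, -1.08, -1.13 and -0.68. The first 10 Mb of chromosome 5, which hold SDHA, had a median of -1.59. Windows also stood higher in KM12, with medians of 1.08 from 110 to 120 Mb of chromosome 4, where 12 genes were called higher and 0 lower, and 0.94 from 50 to 60 Mb of chromosome 13. In the xenografts these windows of chromosomes 4 and 13 had medians of only 0.28 and 0.17. The window of chromosome 5 had -1.11 there, and those of chromosome 6 had -0.89, -1.12, -0.75 and -0.7. DNA copy number was not analysed here, and its part in these medians was not tested.

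The xenografts give the same comparison in libraries that the cultures do not share. The submitters name a mouse genome build beside the human one, how mouse reads were treated is not given in the sources used here, and some of them could have been counted to human genes. Of 15533 genes tested there, 3011 (19.4%) were called at 2-fold or more, 1228 (7.91%) higher and 1783 (11.5%) lower in KM12. Of the 4416 genes called in culture 4034 were tested in xenografts. The direction was the same for 3489 (86.5%), and 1763 (43.7%) were also called in that direction. Opposite signs were found for 545, of which 75 passed the test in xenografts. Among genes called at 4-fold or more the direction was the same for 1816 of 1954 (92.9%).

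The lists described above were read in the same way. Of the 18 Wnt genes called in culture 14 were tested in xenografts and 14 had the same sign. For p53 targets 12 of 16 had the same sign, for brush border genes 14 of 17, and for NRF2 targets 12 of 17. Of the 24 HOX genes called, 23 were tested in xenografts and 19 had the same sign. Among those called in culture these were 5 of 5 in HOXC and in HOXD, 7 of 8 in HOXA and 2 of 6 in HOXB. Of the 23 interferon genes 13 had the same sign and 10 the opposite, and for these 10 the tumors of the lines did not overlap. IFI27 was lower in KM12 in both settings, in xenografts with 1.79 and 3.76 CPM in KM12 xenografts, against 113 and 82.3 CPM in LS174T xenografts. Of those opposite in sign IFI6, IFI44L and IFIT2 passed the test there. IFI6 was higher in KM12 xenografts, with 34.6 and 49.9 CPM in KM12 xenografts, against 9.9 and 10.5 CPM in LS174T xenografts (log2 difference 2.05, adjusted p = 0.00267). MDM2 did not pass the test in tumors, with 78.4 and 118 CPM in KM12 xenografts, against 88.6 and 93.1 CPM in LS174T xenografts (log2 difference 0.11, adjusted p = 0.785).

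Other single genes read differently in tumors. MUC2 did not pass the test there, with 222 and 789 CPM in KM12 xenografts, against 1430 and 1070 CPM in LS174T xenografts (log2 difference -1.3, adjusted p = 0.252). Neither did ST6GALNAC1, with 116 and 252 CPM in KM12 xenografts, against 159 and 213 CPM in LS174T xenografts (-0.02, adjusted p = 0.982). Of the 9 goblet list genes called in culture 7 had the same sign in tumors, and of the 6 mucins 6. MUC5AC, which did not pass the test in culture, had 2210 and 6520 CPM in KM12 xenografts, against 70.5 and 80.9 CPM in LS174T xenografts (log2 difference 5.85, adjusted p = 0.0055). CYP1A1 was under 1 CPM in every tumor, with 0 and 0 CPM in KM12 xenografts, against 0.045 and 0.214 CPM in LS174T xenografts. GSTP1 had 128 and 0.106 CPM in KM12 xenografts, against 613 and 694 CPM in LS174T xenografts, so that, with CPM scaled apart for cultures and tumors, the KM12 parental tumor lay above both KM12 cultures and the tumor labelled knockout below them. GNAS had 1500 and 985 CPM in KM12 xenografts, against 647 and 763 CPM in LS174T xenografts, so the tumor labelled knockout still held GNAS reads, at a level nearer to the parental than in culture. Of the genes near 0 in a line in culture, 34 of 37 present in KM12 and 75 of 90 present in LS174T kept that pattern in xenografts, at 1 CPM or more in both tumors of the line that has them and under 1 CPM in both of the other. A tumor also holds mouse cells, and fewer cells of a type and less RNA per cell cannot be told apart in such bulk samples.

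**Figure D5:**
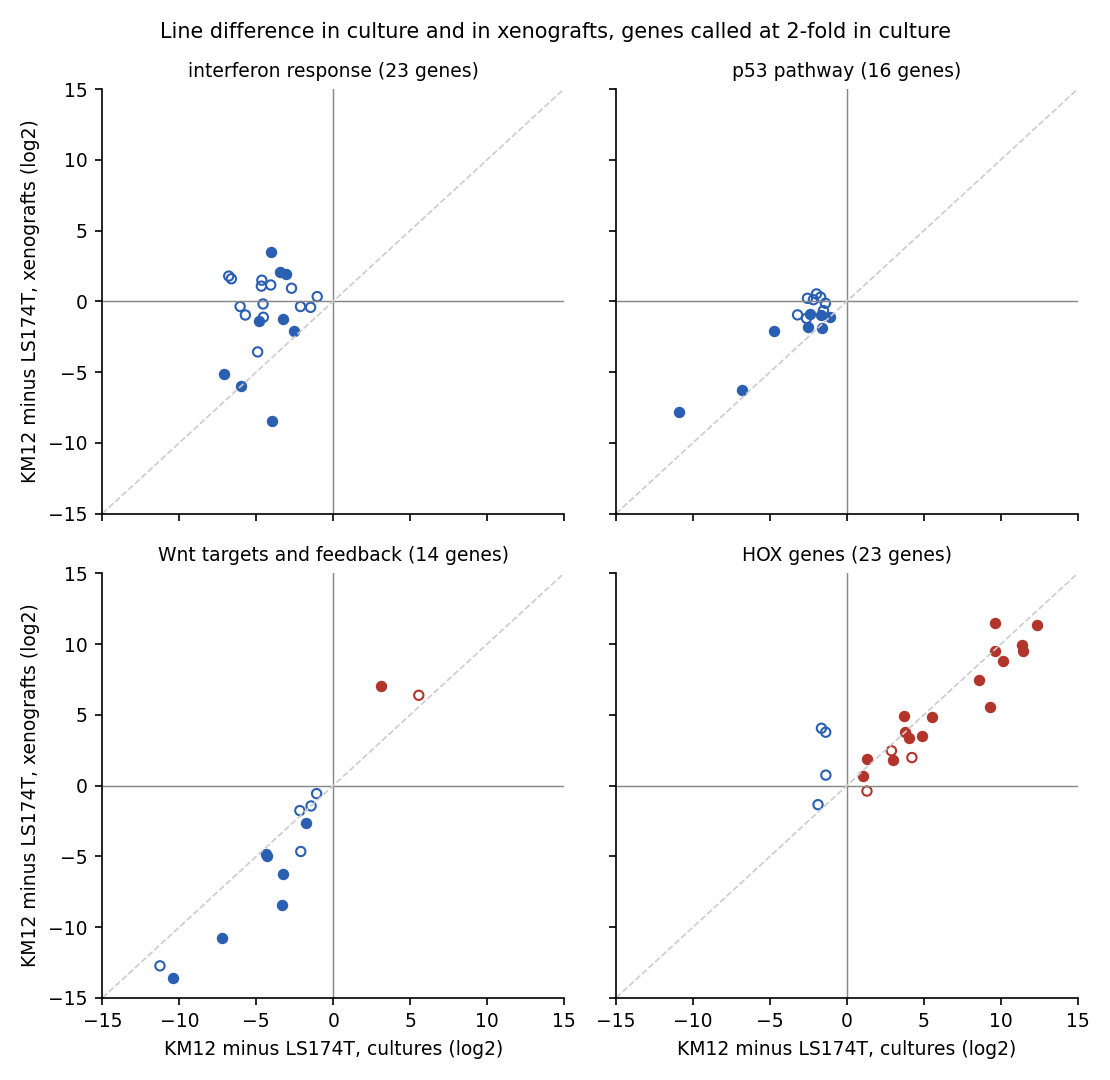
Log2 difference, KM12 minus LS174T, in xenografts (vertical axis) against culture (horizontal axis) for members called at 2-fold or more in culture in the interferon, p53, Wnt and HOX lists. Red points were called higher and blue points lower in KM12 cultures, and filled points also had an adjusted p under 0.05 in xenografts. Wnt genes keep their sign, and 10 of the 23 interferon genes lie above 0 in xenografts.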

How the data were processed

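RNA of cultured cells was extracted with an RNAqueous kit, captured with oligo(dT) beads and copied with random hexamers, per the labels' protocols; no step described marks the strand. The authors deposited raw read counts per gene and library. Per the submitters' processing notes, STAR 2.7.2b and HTSeq 0.11.0 were used, with builds hg38 and GRCm39; the annotation release and strand setting are not given in the sources used here. Symbols and GRCh38 coordinates came from GENCODE 29, matched to 56753 of 60483 genes (93.8%), which hold 99.96% of the counts. Genes with 1 CPM or more in at least 2 of the 4 libraries were tested with edgeR 4.0.16 (R 4.3.3), TMM factors 0.981 to 1.023, robust quasi-likelihood fit and Benjamini-Hochberg adjustment over all genes tested. The standard error is the size of the log2 difference over the square root of F. CPM printed are TMM-scaled, separately for cultures and xenografts, and depend on gene length, so levels are not compared between genes. Ratios carry 95% counting intervals, and against 0 counts a floor of 3 counts a library; both cover counting error only. limma 3.58.1 and DESeq2 1.42.0 were alternatives. The xenografts were fitted apart.

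The 36 gene lists and the comparison itself were chosen with earlier results of these data known, and 5 of their symbols were not found. Genes named by rule were check genes, the 12 largest differences per direction among coding genes at 20 CPM or more, the 6 highest line-restricted genes per direction, and from each list up to 4 called and 3 highest members; other list members in the text were chosen after their values were seen, and some genes that the rule names are not reported here. Promoters came from RefSeq (GRCh38.p14).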

Additional observations from a re-analysis of the deposited data

Results flagged for a closer look

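For 13 of the genes named in the text, each called at 2-fold or more in culture with a mean of at least 5 CPM in either line, both KM12 libraries lay on one side of both LS174T libraries in culture and on the other side in the xenografts. Among all list members, below that level or not named, there were others: of the 23 interferon genes called in culture 10 lay on opposite sides in this way. In each case the difference between culture and xenograft was not tested, and what accounts for it was not tested.

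The keratin pair was lower in KM12 cultures and lay higher in KM12 xenografts, where KRT8 passed the test (adjusted p = 0.0403) and KRT18 did not (0.139). KRT8 had 3650 and 4430 CPM in KM12 xenografts, against 2710 and 1900 CPM in LS174T xenografts, a log2 difference of 0.81 against -1.51 ± 0.12 in culture. KRT18 had 2040 and 1600 CPM in KM12 xenografts, against 1440 and 1080 CPM in LS174T xenografts, a log2 difference of 0.53 against -1.62 ± 0.11 in culture.

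Of the interferon genes 5 are among the 13, lower in KM12 cultures and higher in KM12 xenografts. IFI6 and IFIT2 passed the test in the xenografts, and OAS3, OAS2 and XAF1 did not. IFI6 had a log2 difference of 2.05 in xenografts, against -3.46 ± 0.11 in culture. IFIT2 had 4.08 and 6.41 CPM in KM12 xenografts, against 1.03 and 1.71 CPM in LS174T xenografts (log2 difference 1.94, adjusted p = 0.0371), against -3.08 ± 0.24 in culture. OAS3 had 80 and 114 CPM in KM12 xenografts, against 61.4 and 40.7 CPM in LS174T xenografts (log2 difference 0.92), against -2.71 ± 0.12 in culture. OAS2 had 1.73 and 5.45 CPM in KM12 xenografts, against 1.12 and 0.963 CPM in LS174T xenografts (log2 difference 1.78), where the cultures had 0.157 and 0.401 CPM in KM12, against 36.1 and 28.3 CPM in LS174T. XAF1 had 5.63 and 2.12 CPM in KM12 xenografts, against 1.84 and 0.696 CPM in LS174T xenografts (log2 difference 1.59), where the cultures had 0.0941 and 0.0267 CPM in KM12, against 7.33 and 4.72 CPM in LS174T.

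HBEGF, a ligand of the EGF receptor, and FBP1, an enzyme of glucose synthesis, were higher in KM12 cultures and lower in KM12 xenografts. HBEGF had 2.66 and 5.24 CPM in KM12 xenografts, against 20.6 and 13.1 CPM in LS174T xenografts (log2 difference -2.09), against 1.47 ± 0.11 in culture. FBP1 had 7.42 and 7.2 CPM in KM12 xenografts, against 17.7 and 17.3 CPM in LS174T xenografts (log2 difference -1.26), against 4.12 ± 0.23 in culture.

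VEGFA was higher in KM12 cultures (1.58 ± 0.08) and lower in KM12 xenografts, with 644 and 420 CPM in KM12 xenografts, against 2520 and 1160 CPM in LS174T xenografts (log2 difference -1.79, adjusted p = 0.0368). CCN2, lower in culture (-1.10 ± 0.13), was higher in KM12 xenografts, with 38.4 and 36.9 CPM in KM12 xenografts, against 20.8 and 12.8 CPM in LS174T xenografts (log2 difference 1.16, adjusted p = 0.028). The differences of S100A4 and ACTA2 did not pass the test in xenografts. S100A4 had 31.1 and 120 CPM in KM12 xenografts, against 10.2 and 9.84 CPM in LS174T xenografts (log2 difference 2.91), against -1.86 ± 0.17 in culture, and ACTA2 had 3.71 and 2.7 CPM in KM12 xenografts, against 2.38 and 1.98 CPM in LS174T xenografts (log2 difference 0.55), against -2.04 ± 0.23 in culture.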

How the results depend on the processing

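The count of genes called at 2-fold or more, 4416 as reported, came to 6796 without a filter on low counts and to 2832 with a filter of 5 CPM, since these change which genes are tested, and to 2252 at 4-fold or more. Genes called at any size, 9751 as reported, numbered 9766 with RLE scaling, 9733 with limma-voom, 9185 with DESeq2, 10187 with GNAS state as a term and 6958 with all 8 libraries in the fit. Leaving out each library in turn gave 8618 to 9004 called genes, 4308 to 4483 at 2-fold or more, and 326 to 347 called list members (341 as reported). With at least 5 CPM against under 0.5 CPM, 432 genes were present in one line only (187 in KM12, 245 in LS174T) in place of 127. Some genes whose difference did not pass the test changed sign with 1 library left out, and their log2 differences then ran from -0.1107 to 0.0826 for B2M, -0.1246 to 0.0885 for CDK6, -0.0894 to 0.0369 for EHF, -2.0444 to 0.0191 for GNAS, -0.0365 to 0.0559 for HNF4A, -0.0658 to 0.1112 for HOXA10, -0.0235 to 0.1159 for IFIH1, -0.0926 to 0.5437 for IRF1, -1.6366 to 0.2747 for KRT20, -0.1141 to 0.0423 for PRKACA, -0.0609 to 0.0729 for PRKAR1A, -0.1097 to 0.0713 for RB1, -0.1472 to 0.0098 for S100A16, -0.2767 to 0.0935 for SLC7A11, -0.1316 to 0.0866 for SREBF2, -0.0564 to 0.1277 for TEAD1, -0.512 to 0.0896 for TFF1, -0.6025 to 0.2709 for TFF3 and -0.1367 to 0.3329 for TXNRD1. A fit with 1 library left out does not measure the spread within the line that lost it. PRKAR1A was also at -0.0036 with RLE scaling and with DESeq2. Of 328 genes named in the text or by the rule, between 289 (all 8 libraries in the fit) and 327 (RLE scaling) kept direction and side of the threshold. With GNAS state as a term, GNAS itself had an adjusted p = 0.0107 at under 2-fold (log2 difference -0.94). That fit sets KM12 knockout beside LS174T Dox (-) as the lower GNAS state, and KM12 parental beside Dox (+) as the higher. The labels do not set this match, which is the nearest to a block. The term takes up the spread of GNAS within each line and leaves 1 residual degree of freedom, so the fit cannot decide on GNAS itself. No paired analysis by replicate number was possible because the numbers only name the libraries. For genes near 0 counting error sets the bounds and intervals given.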
